A study of Mus musculus with 21 samples.

Results

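The genes described here were 10 genes of fatty acid uptake and lipid droplets in mouse liver, found by symbol among the 46078 gene identifiers of the count table. They were Cd36, Vldlr, Lpl and Fabp4, which act in the uptake and handling of fatty acids, Plin2, Plin4, Plin5, Cidec and Cideb, whose proteins sit on or remodel lipid droplets, and Mogat1, an enzyme of triglyceride synthesis. All 10 passed the filter on low counts and were tested. The set was chosen on earlier results of these same libraries, so its fold changes and adjusted p-values are a description of the genes and not independent evidence about the group.

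Hepatocytes take up free fatty acids through membrane proteins such as CD36 and lipoprotein remnants through receptors on their surface. Surplus fatty acids are joined to glycerol as triglyceride and stored in droplets, whose surface is coated by perilipins (PLIN proteins) that control access of lipases, while CIDE proteins pass lipid between droplets so that they grow. In healthy adult liver PLIN2 is the common droplet coat, PLIN5 ties droplets to mitochondria, and Cidec, Fabp4 and Mogat1 are better known from fat tissue or fatty liver.

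The study asked how tissues respond when cysteine can be neither made nor eaten. Liver RNA came from male mice at least 9 weeks old, knockouts of Cse on a mixed 129/C57BL/6 background (labelled cse, called KO here) and a comparison genotype labelled WT, which the study's text calls heterozygous. Cse (symbol Cth) encodes cystathionine γ-lyase, which makes cysteine from cystathionine. All mice were on restricted calories and received a defined amino acid diet that was complete (CTR), without cysteine (noCys) or without tryptophan (noTrp), the other amino acids being raised in proportion, and tissue was taken on the second day. The 21 libraries, which their titles call biological replicates, comprised 3 WT and 4 KO on the complete diet, 4 WT and 3 KO without cysteine, the latter with replicate numbers 1, 3 and 4, and 2 WT and 5 KO without tryptophan. Total counts ran from 8889951 to 27230852 per library.

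CPM, the unit of all values per library, is the number of reads of a gene relative to the library's total after TMM scaling, a correction for differences in library composition, scaled to 1000000 reads. Fold changes are log2 values with their standard error (SE). A gene was called when its adjusted p from edgeR's quasi-likelihood F-test, over all 14370 tested genes, was under 0.05. In bulk liver, fewer cells of a type and less RNA per cell cannot be told apart. As a check of the genotype labels, Cth was lower in every KO library (6.34 to 15 CPM) than in every WT library (108 to 452 CPM). The sum of 7 hepatocyte markers was 41900 to 70600 CPM in KO noCys and 62100 to 110000 in the other groups.

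Per length of transcript the genes covered a wide range. The median over 21 libraries, in CPM per kilobase of the principal transcript (RPKM), was 144 for Plin2, 33.5 for Plin5, 26.9 for Cideb, 20.6 for Cd36 and 13.5 for Fabp4. It was 4.90 for Cidec, 4.37 for Lpl, 2.06 for Plin4, 0.380 for Mogat1 and 0.293 for Vldlr. The droplet coat Plin2 thus led the set, and the receptor Vldlr stood at its end, but in every pair of neighbours in this order the ranges over libraries overlapped. The span from the lowest to the highest library was widest for Cd36 (14.2-fold), Plin4 (12.7-fold) and Vldlr (11.8-fold), and narrowest for Cideb (2.35-fold), among the 9 genes without a library at 0. Mogat1 ran from 0 to 1.18 CPM, for which no fold can be given, and rested on 153 counts over all libraries, and Vldlr on 934.

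**Figure D1:**
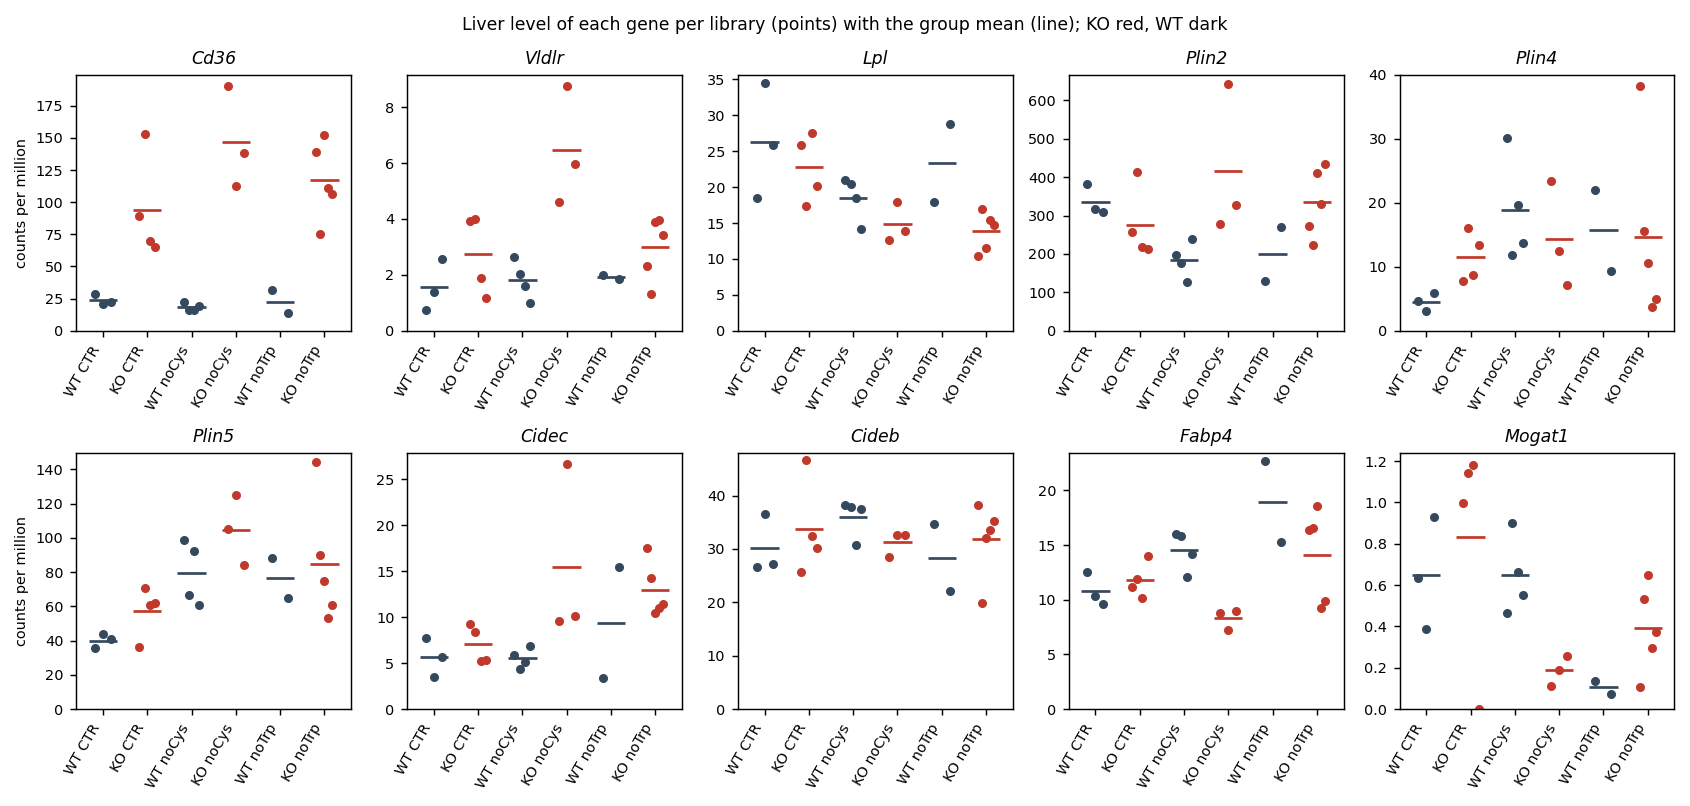
CPM of each of the 10 genes (vertical axes, a scale per gene from 0) in the 6 groups; points are libraries, short lines group means, KO red and WT dark. Cd36 was at 64.9 CPM or more in every KO library and at 31.5 CPM or less in every WT library, and KO noCys replicate 3 was the highest library for Vldlr, Plin2 and Cidec.

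The sequences before the start sites of Cd36, which differed most by genotype, of Plin2, the gene whose response to cysteine removal was called different between the genotypes, and of Plin4, the gene with the widest spread among the droplet proteins, are given here. Each is the 250 bases before the start, 5′ to 3′ on the strand of the gene, from the RefSeq promoters (GRCm38.p6), in which 8 of the 10 genes had 11 windows. Lpl and Fabp4 had none there. The window of Cd36 lies inside the gene, whose annotated 5′ end is at 17888801, and which start is used in these livers was not tested. Capitals mark matches on either strand to AGGTCA, the half-site of nuclear receptors, whose opposite strand reads TGACCT.
Cd36 (chr5:17835897-17836146, minus strand): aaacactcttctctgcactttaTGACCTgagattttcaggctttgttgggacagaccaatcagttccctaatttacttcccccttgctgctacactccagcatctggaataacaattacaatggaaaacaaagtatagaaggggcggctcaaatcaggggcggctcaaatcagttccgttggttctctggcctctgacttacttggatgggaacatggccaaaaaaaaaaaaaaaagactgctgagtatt
Plin2 (chr4:86670060-86670309, minus strand): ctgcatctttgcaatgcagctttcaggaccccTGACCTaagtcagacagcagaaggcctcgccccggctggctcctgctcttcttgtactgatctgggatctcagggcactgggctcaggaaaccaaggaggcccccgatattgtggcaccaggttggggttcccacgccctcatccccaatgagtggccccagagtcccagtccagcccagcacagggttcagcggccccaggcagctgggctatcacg
Plin4 (chr17:56109783-56110032, minus strand): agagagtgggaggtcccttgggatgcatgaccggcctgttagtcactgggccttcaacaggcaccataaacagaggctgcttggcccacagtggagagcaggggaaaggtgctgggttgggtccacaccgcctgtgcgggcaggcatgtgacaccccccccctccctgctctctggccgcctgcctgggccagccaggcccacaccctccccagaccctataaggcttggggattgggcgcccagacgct

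The half-site matches began 228 bases before the start of Cd36, 218 before that of Plin2 and 170 before the first of 2 starts of Plin5, and a further match lay 13 bases after the second. The sequences of Plin5 are not shown, and the shown stretch of Plin4 held none. The longer window of 250 bases before to 50 after the start held a half-site in 4 of the 11 windows of these genes, in 3 of the 8 genes, and in 16.3% of all 32851 windows. No window of these genes held the direct repeat of 2 half-sites 1 base apart (DR1, bound by PPAR with RXR, in 0.0396% of all windows) or TGATGNAAT, the element bound by ATF4 with C/EBP (0.965%). Cideb held TGACNNNGC, the antioxidant response element (12.4% of all windows), 17 bases before its start, and TATAAA (13.6%) 172 bases before it. A match to these letters is a description of the window and says nothing of binding.

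Without dietary cysteine, Cd36, Vldlr, Cidec and Plin2 were higher and Fabp4 was lower in KO than in WT, so that 5 of the 10 genes were called, 4 higher and 1 lower. Of all tested genes 28.2% were called in this comparison, 14.8% higher and 13.4% lower. Every KO library was above every WT library for the 4 that rose and below for Fabp4 and Mogat1. How many of all tested genes separated in this way was not counted, so this separation cannot be read as particular to these genes. The median log2 fold change of the 10 genes was 0.09, against -0.02 over all genes. The higher share among all called genes was 52.5%, and 80.0% with library totals in place of TMM, which moved the median of all genes to 0.20, but the same 5 genes were called in the same directions. Without KO noCys replicate 3 only Cd36 and Vldlr were called, and the share of all genes called was 16.5%. The fold changes then were 0.71 for Plin2, 0.81 for Cidec and -0.71 for Fabp4, against 1.17, 1.48 and -0.81 with it. In the same comparison 3 of the 7 hepatocyte markers (Alb, Ttr and Serpina1c) fell. The sum of the 7 was lowest of all libraries in KO noCys replicate 3 (41930 CPM, against 70630 and 46180 in replicates 1 and 4). On log2 scales its r with Cd36, Vldlr, Plin2, Cidec and Fabp4 was -0.617, -0.67, -0.688, -0.762 and 0.51. Within groups r was 0.49, -0.218, -0.606, -0.574 and 0.364. The part of the hepatocyte markers in these results was not tested.

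On the control diet and without tryptophan Cd36 was the 1 gene called between the genotypes, where 0.32% and 0.195% of all genes were called. Within KO, removing cysteine gave 4 calls, Vldlr, Cidec and Plin5 higher and Mogat1 lower, in a comparison where 20.2% of all genes were called. Against KO noTrp, KO noCys gave 1 call, Fabp4 lower, against 13.9% of all genes. The effect of cysteine removal was called different between the genotypes for 1 gene, Plin2, against 7.44% of all genes. Without KO noCys replicate 3 the 6 calls in these last 3 comparisons were lost (adjusted p 0.126 to 0.516), and 9.65%, 3.99% and 3.01% of all genes were called.

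4 comparisons gave no call among the 10 genes by edgeR over all groups and libraries with the filter on low counts. The shares of all genes given here are at an adjusted p under 0.05. The share of all genes at an unadjusted p under 0.05 was not counted, so counts at unadjusted p have no background beside them. Tryptophan removal in KO called 1.87% of all genes, and 4 of the 10 had an unadjusted p under 0.05 (Lpl, Plin5, Cidec and Mogat1). DESeq2, limma-voom and edgeR without the filter each called 1, Lpl, and 4.22%, 4.24% and 1.16% of all genes. Cysteine removal in WT called 0.661% of all genes, again with 4 of the 10 at an unadjusted p under 0.05 (Lpl, Plin2, Plin4 and Plin5). There DESeq2 called 1, limma-voom 2, edgeR without the filter 2 and edgeR in the compared groups alone 3. Of all genes these 4 called 2.2%, 3.71%, 1.01% and 3.08%. Tryptophan removal in WT called 3.19% of all genes, with 4 of the 10 at an unadjusted p under 0.05 (Plin4, Plin5, Fabp4 and Mogat1). There DESeq2 called 1, Fabp4, and limma-voom 0, with 5.6% and 0.223% of all genes. The genotype effect without cysteine against that without tryptophan called 6.35% of all genes, with 1 of the 10 at an unadjusted p under 0.05 (Mogat1). DESeq2 and limma-voom called 0 of the 10, and 8.81% and 3.85% of all genes.

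**Figure D2:**
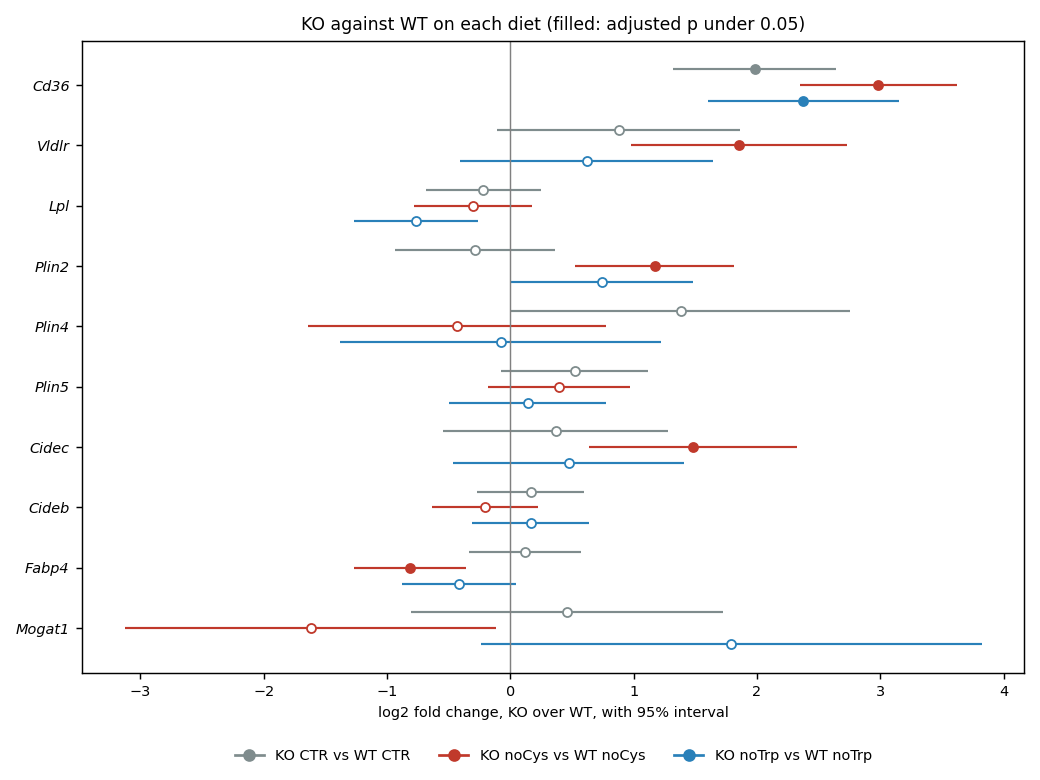
Log2 fold change of KO over WT (horizontal axis, with 95% intervals) for the 10 genes on each of the 3 diets; filled points had an adjusted p under 0.05. Cd36 lay between 1.98 and 2.98 on all 3 diets, while Vldlr, Cidec, Plin2 and Fabp4 were called without cysteine alone, and of these only Plin2 was called for a difference between this effect and that on the control diet.

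Among the genes of uptake, Cd36 encodes the scavenger receptor that carries long-chain fatty acids into cells. It is ENSMUSG00000002944 on chromosome 5, 17781690 to 17888801 (GRCm38). WT livers had 28.9, 21.03 and 22.1 CPM on the control diet, 22.1, 16.1, 16.15 and 19.45 with cysteine removed, and 31.5 and 13.4 with tryptophan removed. KO livers had 89.0, 153, 70.1 and 64.9 CPM on the control diet, 190.5, 112.5 and 138.5 without cysteine, and 139, 75.6, 152, 111 and 106 without tryptophan. The genotypes did not overlap on any diet.

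KO exceeded WT for Cd36 by a log2 fold change of 2.98 (SE 0.31, 7.91-fold, adjusted p = 1.33e-06) without cysteine, 1.98 (SE 0.32, 3.94-fold, adjusted p = 0.0107) on the control diet and 2.38 (SE 0.37, 5.19-fold, adjusted p = 0.0061) without tryptophan. The last value was 3.12 without WT noTrp replicate 1 and 1.89 without replicate 2. The difference between the effect of cysteine removal in KO and in WT was 1.00 (95% interval 0.12 to 1.89, adjusted p = 0.155), and that between the genotype effects without cysteine and without tryptophan was 0.61 (-0.31 to 1.53, adjusted p = 0.467). Within KO the level without cysteine was 0.64 (SE 0.29, adjusted p = 0.128) above control, and the groups overlapped through KO CTR replicate 2. Without that library this value was 0.98 (adjusted p = 0.0151) and the difference between the genotypes' responses 1.34 (adjusted p = 0.0339), and limma-voom with all libraries also called both (adjusted p = 0.0131 and 0.027). The call on the control diet was lost without WT CTR replicate 3 (1.93, adjusted p = 0.0745) and in a fit of the compared groups alone (adjusted p = 0.0811), as was that without tryptophan in such a fit (adjusted p = 0.136).

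The genes whose log2 CPM over the 21 libraries was most like that of Cd36 were Asns (Pearson r = 0.904), Sult2a7 (0.901) and Car2 (0.900). With the group means taken out, r was 0.333, 0.642 and 0.413. These libraries share their groups, so the values describe the pattern.

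Vldlr encodes the very low density lipoprotein receptor, which binds triglyceride-rich particles and is scarce in normal liver. It is ENSMUSG00000024924 on chromosome 19, 27216484 to 27254231. With cysteine removed, KO livers had 4.62, 8.77 and 5.98 CPM, and WT livers 2.63, 2.03, 1.61 and 1.01. The control diet gave 0.741, 1.39 and 2.56 for WT, with 3.92, 3.997, 1.89 and 1.19 for KO, and the diet lacking tryptophan 2.01 and 1.87 for WT, with 2.33, 1.33, 3.88, 3.95 and 3.43 for KO. Each KO noCys library was above every library of the other groups.

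The fold change of Vldlr in KO noCys was 1.85 (SE 0.42, 3.61-fold, adjusted p = 0.00268) over WT noCys and 1.204 (SE 0.40, adjusted p = 0.0384) over KO CTR. Over KO noTrp it was 1.13 (SE 0.38, adjusted p = 0.052), not called over all groups with the filter but called by DESeq2 (adjusted p = 0.0345), limma-voom (adjusted p = 0.0153), and edgeR without the filter (adjusted p = 0.0384), with library totals (adjusted p = 0.04) or in the compared groups alone (adjusted p = 0.0439). The first of these was called with each library left out, while the call against KO CTR was lost without KO CTR replicate 3 or 4 or KO noCys replicate 3 or 4 (adjusted p 0.0693 to 0.224) and in a fit of those groups alone (adjusted p = 0.0574). The differences between KO and WT on the other diets were 0.88 (SE 0.47, adjusted p = 0.578) and 0.62 (SE 0.49, adjusted p = 0.794) and were not called. Rab11fip4 (r = 0.859), Fam173b (0.844) and Tma16 (0.833) had the most similar pattern over libraries.

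Lpl encodes lipoprotein lipase, which frees fatty acids from circulating triglyceride and is low in adult hepatocytes. It is ENSMUSG00000015568 on chromosome 8, 68880491 to 68907448. The control diet gave 18.5, 34.5 and 25.9 CPM for WT, with 25.9, 17.4, 27.5 and 20.2 for KO, and the diet lacking cysteine 21, 20.5, 18.4 and 14.1 for WT, with 12.6, 17.96 and 13.9 for KO. For the diet lacking tryptophan WT had 17.97 and 28.8, while KO had 10.4, 16.9, 11.6, 15.4 and 14.8, so that every KO library was below every WT library and every KO CTR library.

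Lpl was not called in any comparison by edgeR over all groups and libraries with the filter on low counts. Its largest differences were -0.76 (SE 0.24, adjusted p = 0.261) for KO against WT without tryptophan, -0.72 (SE 0.20, adjusted p = 0.0626) for tryptophan removal in KO, and -0.60 (SE 0.23, adjusted p = 0.0688) for cysteine removal in KO. The last 2 were under 0.05 by DESeq2 (adjusted p = 0.0191 and 0.0456) and limma-voom (0.0357 and 0.0409). Without the filter edgeR called both (0.0262 and 0.0493), as it did without KO CTR replicate 2 (0.0344 and 0.0367), and in the compared groups alone it called the last (0.0485). The difference of Lpl between KO and WT without tryptophan was -0.39 without WT noTrp replicate 2 and -1.07 without replicate 1. Smim6 (r = 0.845), Ihh (0.809) and Afap1 (0.795) were most like Lpl. Lpl and Cd36 ran in opposite directions over the libraries, with r = -0.587 and, within groups, -0.723.

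Fabp4 encodes a fatty acid binding protein of adipocytes, macrophages and capillary endothelium. It is ENSMUSG00000062515 on chromosome 3, 10204088 to 10208576. Its level was 8.80, 7.20 and 8.93 CPM in KO noCys, below every library of the other 5 groups. WT livers had 16.1, 15.9, 12.1 and 14.2 on that diet, 12.5, 10.4 and 9.64 on the control diet, and 22.7 and 15.2 with tryptophan removed. The other KO livers had 11.1, 11.9, 10.2 and 14.0 on the control diet, and 16.3, 16.6, 18.6, 9.29 and 9.85 with tryptophan removed.

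Fabp4 fell by 0.81 on the log2 scale (SE 0.22, adjusted p = 0.00896) in KO against WT without cysteine and by 0.78 (SE 0.21, adjusted p = 0.0177) in KO noCys against KO noTrp. Both calls were lost without KO noCys replicate 3 (-0.71, adjusted p = 0.0627, and -0.68, adjusted p = 0.126), and the second also in a fit of the compared groups alone (adjusted p = 0.057). The difference between cysteine removal in KO and in WT was -0.94 (SE 0.31, adjusted p = 0.0706 by edgeR over all groups, 0.0145 in the compared groups alone and 0.0382 by DESeq2). In WT, tryptophan removal gave 0.81 (SE 0.25, adjusted p = 0.0832), with all libraries above WT CTR. This value was 0.49 without WT noTrp replicate 1 and 1.07 without replicate 2.

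Markers of other cell types were read beside Fabp4 and Plin4, since adipose tissue carried over at dissection would hold both. Among 8 adipocyte markers, Lep had 0 counts in all 21 libraries, which allows up to 0.107 to 0.348 CPM (3 counts) in a library, and Adipoq, Retn, Plin1 and Cidea had 0 counts in 16, 17, 17 and 15 of 21. The list's summed level was 15.2 to 20.2 CPM in KO noCys, 28.4 to 34.3 in WT noCys, 24.4 to 27.9 in WT CTR, 24.4 to 26.4 in KO CTR, 17.5 and 48.6 in WT noTrp, and 24.1 to 34.4 in KO noTrp, and it was made up mainly of Lipe (11.8 to 30.0 CPM) and Adrb3 (1.81 to 18.4 CPM), which were above 0 in every library. 3 of the 8 passed the filter, and Adrb3 (-1.92, SE 0.39, adjusted p = 0.00123) and Cfd (-3.44, SE 1.01, adjusted p = 0.0152) fell in KO against WT without cysteine.

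The adipokine Adipoq reached 14 counts (0.817 CPM) in WT noCys replicate 1 and 3 counts (0.285 CPM) in replicate 3, and Cfd, the adipocyte protease adipsin, was 6.36 and 2.18 CPM there and at most 1.06 elsewhere. These 2 libraries also had the highest Plin4 and Plin5 of WT noCys. KO noTrp replicate 1, the highest library of all for Plin4, had 0 counts of Adipoq. The part of carried-over adipose tissue in Plin4 and Plin5 was not tested. With both WT noCys libraries left out, Fabp4 in KO against WT without cysteine was -0.86 (adjusted p = 0.0323), Cd36 3.03 (adjusted p = 0.000159) and Vldlr 2.19 (adjusted p = 0.013), all called, while Plin2 (0.99, adjusted p = 0.0863) and Cidec (1.44, adjusted p = 0.0753) were not.

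Over the 21 libraries Fabp4 had r = 0.367 with the adipocyte list, 0.825 with 8 endothelial markers and 0.737 with 8 macrophage markers, on log2 scales, and with group means taken out r was -0.306, 0.711 and 0.582. The adipocyte sum was mainly Lipe and Adrb3, which were above 0 in every library, so its r cannot measure carried-over adipose tissue. Gene and list share the library and its TMM scaling. Mmrn2, an endothelial gene, was among the genes most like Fabp4 (r = 0.899), beside Il18bp (0.904) and Trafd1 (0.873). The summed endothelial markers were 110 to 123 CPM in KO noCys, 126 to 183 in WT noCys and 139 to 195 in KO noTrp, and 3 of the 8 (Pecam1, Kdr and Tek) fell in KO against WT without cysteine. KO noCys thus lay below WT noCys in every library, while per library total, without TMM scaling, the sums overlapped (122 to 128 and 114 to 176). The macrophage markers were 100 to 118 CPM in KO noCys and 116 to 188 in WT noCys, and 1 of the 8, Cd5l, fell. The part of these cells in the level of Fabp4 was not tested. Plin4 had r = -0.134 with the adipocyte list and 0.301 with the endothelial list, and -0.339 and 0.451 within groups. Fabp4 and Plin4 had r = 0.477 with each other, and 0.617 within groups.

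**Figure D3:**
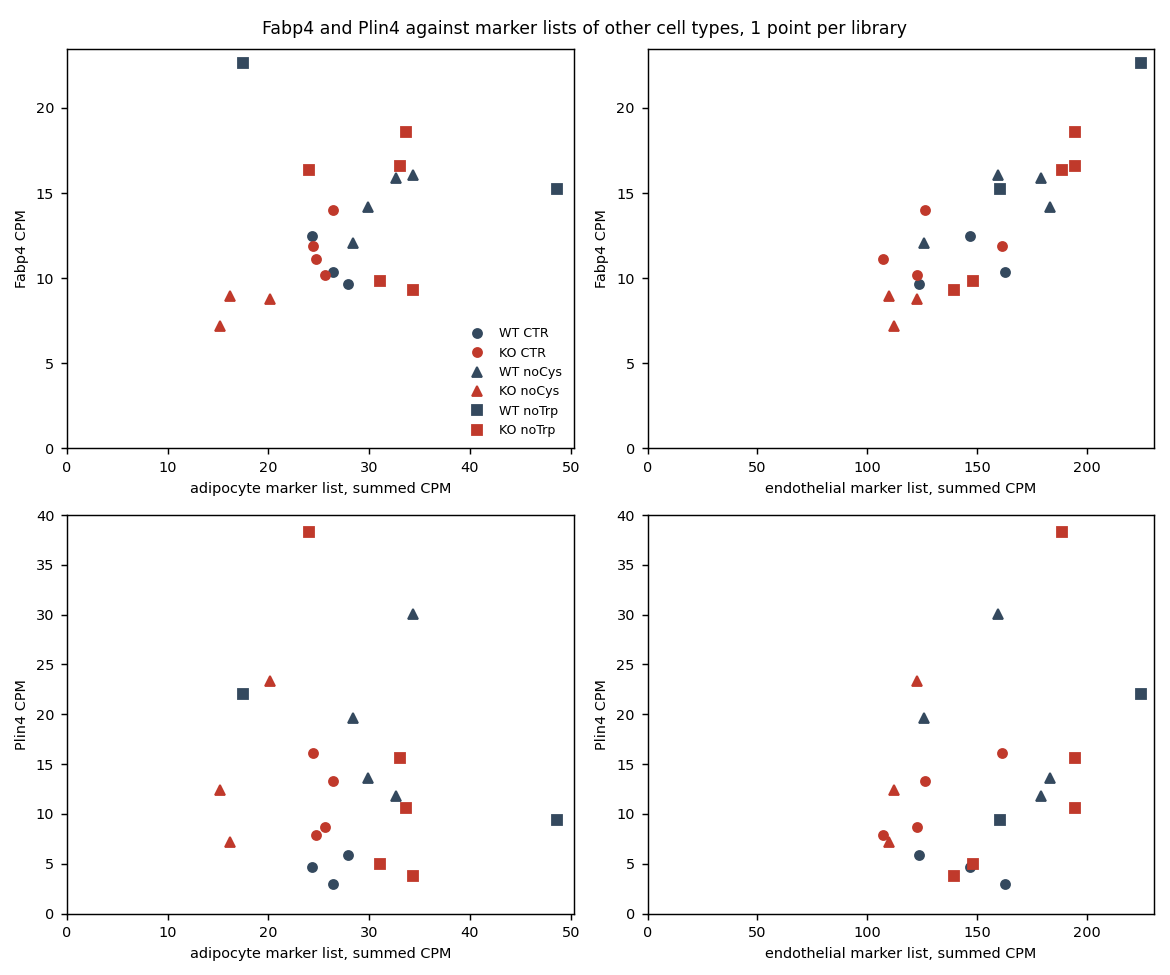
CPM of Fabp4 (top) and Plin4 (bottom) against the summed CPM of the adipocyte (left) and endothelial (right) marker lists, 1 point per library, with KO red, WT dark and a symbol per diet. Fabp4 was higher in libraries with more endothelial marker RNA (r = 0.825 on log2 scales). For Plin4 r was -0.134 with the adipocyte and 0.301 with the endothelial list, and -0.339 and 0.451 within groups. The adipocyte sum was mainly Lipe and Adrb3 and cannot measure carried-over adipose tissue.

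Among the droplet proteins, Plin2 encodes the perilipin found on most droplets, whose level tends to follow stored lipid. It is ENSMUSG00000028494 on chromosome 4, 86648386 to 86670060. With cysteine removed, KO livers had 278, 641 and 327 CPM, and WT livers 197, 177, 127 and 239. WT livers had 382, 318 and 309 on the control diet, and 129 and 271 with tryptophan removed. KO livers had 256, 414, 218 and 213 on the control diet, and 272, 223, 412, 330 and 433 with tryptophan removed. The WT libraries on both depleted diets were thus below all WT CTR libraries, whereas the KO groups overlapped.

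Without cysteine Plin2 was 1.17 (SE 0.31, 2.25-fold, adjusted p = 0.00808) higher in KO than in WT. The change on cysteine removal was 0.59 (SE 0.31, adjusted p = 0.185) in KO and -0.86 (SE 0.31, adjusted p = 0.202) in WT. Neither was called by edgeR over all groups, while limma-voom (adjusted p = 0.0476) and edgeR in the compared groups alone (adjusted p = 0.0348) called the one in WT. The difference between these was 1.46 (95% interval 0.55 to 2.37, adjusted p = 0.0464). This last call lay close to the threshold. With 1 library left out in turn it was lost in 11 of 14 fits, with values from 1.00 (adjusted p = 0.209, without KO noCys replicate 3) to 1.72 (adjusted p = 0.0184, without KO CTR replicate 2). The call of KO against WT was lost without KO noCys replicate 3 (0.71, adjusted p = 0.123), and the change on cysteine removal in KO was then 0.14. Without tryptophan the genotypes differed by 0.74 (SE 0.35, adjusted p = 0.559), which was 0.30 without WT noTrp replicate 1 and 1.38 without replicate 2, and on the control diet by -0.29 (SE 0.31, adjusted p = 0.82). Wdr73 (r = 0.852), Sirt4 (0.843) and Mtrf1l (0.841) were most like Plin2.

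**Figure D4:**
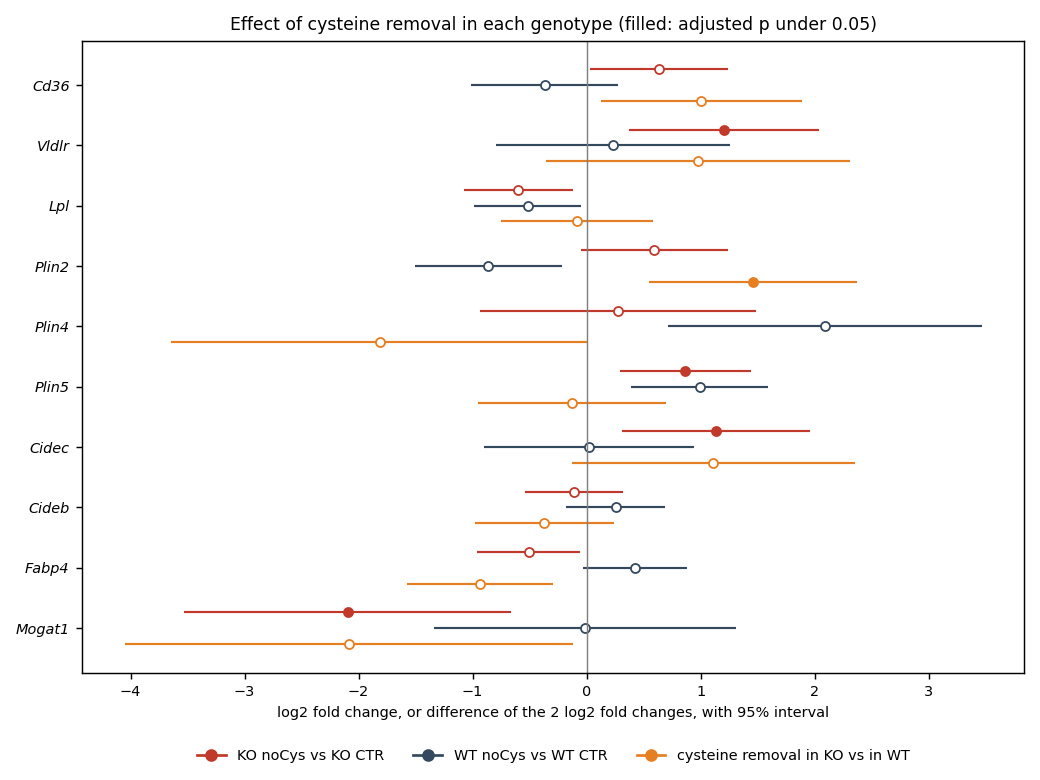
Log2 fold change on cysteine removal in KO and in WT, and the difference of the 2 (horizontal axis, with 95% intervals), for the 10 genes; filled points had an adjusted p under 0.05. The 2 responses of Plin2 lay on either side of 0 and their difference, 1.46, was the one called, while those of Plin5 were 0.87 and 0.99. Without KO noCys replicate 3 the response of Plin2 in KO was 0.14.

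Cidec, also called Fsp27, encodes a protein that enlarges droplets and is known from adipocytes and fatty liver. It is ENSMUSG00000030278 on chromosome 6, 113424634 to 113435760. Its level was 9.59, 26.7 and 10.2 CPM in KO noCys against 5.83, 4.39, 5.13 and 6.90 in WT noCys. The control diet gave 7.73, 3.48 and 5.69 for WT, with 9.28, 8.42, 5.28 and 5.39 for KO, and the diet lacking tryptophan 3.35 and 15.5 for WT, with 17.5, 14.3, 10.4, 10.97 and 11.5 for KO. Both depleted diets left every KO library above every KO CTR library.

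In KO noCys Cidec was 1.48 (SE 0.40, 2.79-fold, adjusted p = 0.00994) above WT noCys and 1.13 (SE 0.40, adjusted p = 0.048) above KO CTR. Without KO noCys replicate 3 these values were 0.81 (adjusted p = 0.186) and 0.46 (adjusted p = 0.516), and the call against KO CTR was also lost without any 1 of the 4 KO CTR libraries (adjusted p 0.0518 to 0.119) and in those groups alone (adjusted p = 0.0597). Tryptophan removal in KO gave 0.85 (SE 0.36, adjusted p = 0.225), and KO noCys differed from KO noTrp by 0.28 (95% interval -0.50 to 1.05). The difference between cysteine removal in KO and in WT was 1.11 (SE 0.59, adjusted p = 0.27). Pgghg (r = 0.886), Thpo (0.856) and Eid2b (0.850) were most like it. Cidec and Plin2 went together, with r = 0.630 over the libraries and 0.616 within groups.

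Cideb, the CIDE protein of hepatocytes that acts in the loading of lipoproteins, was not called in any comparison. It is ENSMUSG00000022219 on chromosome 14, 55754050 to 55758458, and shares bases with Nop9 on the other strand. Its 21 values lay between 19.9 and 46.7 CPM, the groups overlapped in every comparison, and no tool or setting called it. KO differed from WT by -0.21 (95% interval -0.64 to 0.23) without cysteine, where library totals in place of TMM gave 0.01, by 0.16 (-0.27 to 0.60) on the control diet and by 0.16 (-0.31 to 0.64) without tryptophan. Abhd14b (r = 0.836), Acadvl (0.823), an enzyme of fatty acid oxidation, and Chdh (0.809) were most like it.

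Plin5 encodes the perilipin of oxidative tissues, which links droplets to mitochondria. It is ENSMUSG00000011305 on chromosome 17, 56111601 to 56117596. Its level was 35.4, 43.8 and 40.9 CPM in WT CTR, and both depleted diets left every WT library above these, at 99.0, 66.6, 92.5 and 60.7 without cysteine and 88.5 and 64.9 without tryptophan. In KO it was 36.1, 70.4, 60.9 and 62.1 on the control diet, 105, 125 and 83.9 without cysteine, and 144, 90.0, 74.5, 53.0 and 60.7 without tryptophan.

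Cysteine removal raised Plin5 in KO by 0.87 (SE 0.28, 1.82-fold, adjusted p = 0.031). In WT it gave 0.99 (SE 0.29, adjusted p = 0.11), not called by edgeR over all groups with the filter but called by DESeq2 (adjusted p = 0.0272), limma-voom (adjusted p = 0.033), and edgeR without the filter (adjusted p = 0.0325) or in the compared groups alone (adjusted p = 0.0209), and the difference between the genotypes was -0.13 (95% interval -0.95 to 0.70). The call in KO was lost without KO CTR replicate 1, 3 or 4 or KO noCys replicate 1 or 3 (adjusted p 0.0515 to 0.157). Tryptophan removal gave 0.94 (SE 0.33, adjusted p = 0.128) in WT and 0.56 (SE 0.25, adjusted p = 0.247) in KO, the latter 0.28 without KO noTrp replicate 1. With both WT noCys libraries that held Adipoq left out, the value in WT on cysteine removal was 0.66 (adjusted p = 0.483). Mat1a (r = 0.883), Atp10d (0.860) and Cdkn1a (0.846) were most like Plin5.

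Plin4, a perilipin best known from adipocytes and muscle, is ENSMUSG00000002831 on chromosome 17, 56100591 to 56109803. It lies 1797 bases from Plin5 on the same strand and shares bases with Hdgfl2 on the other. WT livers had 4.66, 3.02 and 5.92 CPM on the control diet, 30.1, 11.8, 19.7 and 13.7 with cysteine removed, and 22.0 and 9.41 with tryptophan removed. KO livers had 7.85, 16.1, 8.66 and 13.3 on the control diet, 23.3, 12.4 and 7.13 with cysteine removed, and 38.3, 15.6, 10.6, 3.76 and 5.00 with tryptophan removed. The 3 WT CTR libraries were below all libraries of WT noCys, WT noTrp and KO CTR, and the KO noTrp group alone spanned nearly the whole range.

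No difference of Plin4 was called by edgeR over all groups. In WT, cysteine removal gave 2.09 (SE 0.66, adjusted p = 0.144) and tryptophan removal 1.82 (SE 0.74, adjusted p = 0.189), and KO exceeded WT on the control diet by 1.38 (SE 0.66, adjusted p = 0.519). The first was called in a fit of the 2 groups alone (adjusted p = 0.018) and without the filter on low counts (adjusted p = 0.0414), and was 1.52 (adjusted p = 0.481) with both WT noCys libraries that held Adipoq left out. The value for tryptophan removal in WT was 1.08 without WT noTrp replicate 1 and 2.31 without replicate 2. The difference between cysteine removal in KO and in WT was -1.81 (95% interval -3.65 to 0.02, adjusted p = 0.221). Hdgfl2 stayed between 32.2 and 50.8 CPM and changed by 0.30 (SE 0.09, adjusted p = 0.11) on cysteine removal in WT, which matters because the strand setting of the counting was not stated. Plin4 and Plin5 went together, with r = 0.785 over the libraries and 0.836 within groups, and Wbp1l (r = 0.875), Gadd45b (0.874) and Hip1r (0.872) were most like Plin4.

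Mogat1 encodes monoacylglycerol acyltransferase 1, which starts a route to triglyceride that is little used in normal liver. It is ENSMUSG00000012187 on chromosome 1, 78510991 to 78538173. WT livers had 0.635, 0.387 and 0.929 CPM on the control diet, and 0.467, 0.901, 0.665 and 0.554 with cysteine removed, where KO livers had 0.113, 0.191 and 0.257. KO livers on the control diet had 0.999, 1.14 and 1.18, and replicate 4 had 0 counts, which allows up to 0.274 CPM (3 counts). With tryptophan removed, WT livers had 0.134 and 0.0747, and KO livers 0.109, 0.532, 0.647, 0.296 and 0.373. Several of these values are at or near the level that 3 counts give, so the order of the low libraries cannot be read at this depth.

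Cysteine removal in KO changed Mogat1 by -2.10 (SE 0.69, adjusted p = 0.0361). The call held in 1 of 7 fits with a library left out, that without KO CTR replicate 4 (-2.46, adjusted p = 0.00243), and neither limma-voom (-1.05, adjusted p = 0.406) nor the fit of those groups alone (adjusted p = 0.0947) made it. KO against WT without cysteine was -1.62 (SE 0.72, adjusted p = 0.0986), with every KO library below every WT library. Tryptophan removal in WT was -2.48 (SE 1.00, adjusted p = 0.189), again without overlap. Rexo5 (r = 0.741), Tead2 (0.741) and Ss18l1 (0.720) were most like it.

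**Figure D5:**
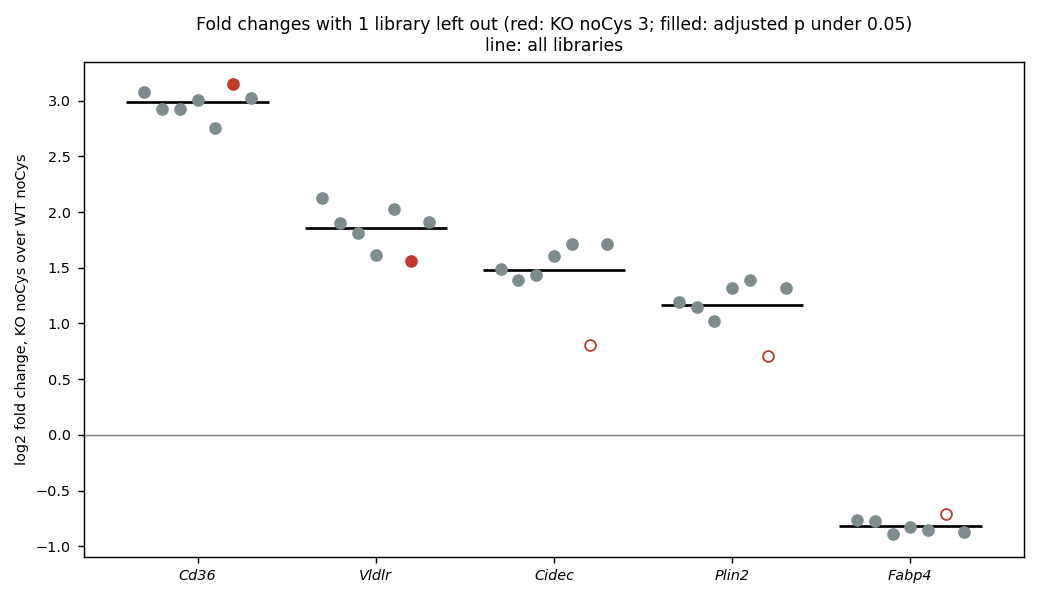
Log2 fold change of KO over WT without cysteine (vertical axis) for the 5 called genes with each of the 7 libraries left out (points, filled where the adjusted p was under 0.05) beside the value from all libraries (lines). Leaving out KO noCys replicate 3 (red) moved Cidec from 1.48 to 0.81 and Plin2 from 1.17 to 0.71, and Cd36 and Vldlr were called in all 7.

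The genes of these pathways stood in lists written with earlier results of these data known, so their shares are a description. In KO against WT without cysteine, uptake and lipoproteins had more calls than the 28.2% of all genes. Shares were nearer to it for droplets and synthesis, and 5 of 12 genes of lipolysis and 2 of 12 transcription factors were called. Of 17 tested genes of fatty acid uptake, Cd36 and Fabp4 included, 9 were called, 3 higher and 6 lower, with a median log2 fold change of -0.53 (all genes -0.02). Without Cd36 and Fabp4 7 of 15 were called, 2 higher and 5 lower. The acyl-CoA binding protein Dbi fell by 2.05 (SE 0.16, adjusted p = 4.12e-08), the liver fatty acid transporter Slc27a5 by 1.06 (SE 0.13, adjusted p = 1.25e-05) and Fabp5 by 2.54 (SE 0.58, adjusted p = 0.00299), while the acyl-CoA synthetase Acsl4 (0.46, SE 0.13, adjusted p = 0.0126) and Slc27a4 (0.24, SE 0.08, adjusted p = 0.0297) rose beside Cd36. Cd36 had the largest rise of this list.

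Of 17 lipoprotein receptors, lipases and their regulators, Vldlr and Lpl included, 11 were called, 2 higher and 9 lower (median -0.46). Without Vldlr and Lpl 10 of 15 were called, 1 higher and 9 lower. Vldlr was among those that rose, and the endothelial lipase Lipg fell by 1.64 (SE 0.40, adjusted p = 0.00435). For Lipg the effect of cysteine removal was also called different between KO and WT (-2.55, adjusted p = 0.00815), which it was not for Vldlr (0.97, SE 0.64, adjusted p = 0.381).

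Of 16 tested droplet genes, 5 genes of the set included, 5 were called, Cidec, Plin2 and the liver droplet protein Hsd17b13 (0.35, SE 0.09, adjusted p = 0.00824) higher and Hsd17b11 (-0.49, SE 0.16, adjusted p = 0.0243) and the droplet hydrolase Ldah (-0.45, SE 0.12, adjusted p = 0.00655) lower, with a median of -0.02. Without the genes of the set 3 of 11 were called, 1 higher and 2 lower, with a median of -0.16. Of 16 genes of triglyceride synthesis, Mogat1 included, 4 were called, all higher, of which Gpat3 (2.28, SE 0.24, adjusted p = 2.32e-06) and Agpat5 (0.83, SE 0.11, adjusted p = 3.06e-05) also differed in their response to cysteine removal between KO and WT (1.18, adjusted p = 0.0497, and 0.66, adjusted p = 0.0198). Dgat1, which makes triglyceride from diacylglycerol, rose by 0.41 (SE 0.11, adjusted p = 0.00859).

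Of 12 genes of lipolysis 5 were called, 1 higher and 4 lower (median -0.41). The carboxylesterases moved both ways, Ces1d falling by 1.70 (SE 0.32, adjusted p = 0.000527) and Ces1g rising by 0.52 (SE 0.17, adjusted p = 0.0297). Ces1f, of the same family (-0.81, SE 0.22, adjusted p = 0.0101), and the esterase Aadac (-0.58, SE 0.12, adjusted p = 0.00128) also fell. Of 12 transcription factors that act on these genes 2 were called, Pparg, a nuclear receptor of adipocytes and fatty liver, higher (1.14, SE 0.28, 2.70 to 5.98 CPM in the group means, adjusted p = 0.00421) and Foxo1 lower (-0.98, SE 0.22, adjusted p = 0.00226). Without tryptophan, Cd36 was the only gene of these 6 lists called between KO and WT.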

How the data were processed

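Liver poly(A) RNA of 21 mouse samples was sequenced from NEBNext Ultra libraries. The deposited values were raw counts of reads per gene, which the authors made with HISAT2 (2.1.0), HTSeq (0.11.0) and GRCm38, per the labels and the study's methods, and the strand setting was not given in the sources used here. One table with 46078 identifiers held all samples, and 1 of its 22 columns matched no sample and was not used. Symbols, positions and transcript lengths came from GENCODE M21.

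Groups followed the genotype and diet labels. The members and gene lists were chosen with earlier results of these data known. Genes were filtered with filterByExpr (minimum count 10, minimum total 15), which left 14370, and fitted over all 6 groups in edgeR 4.0.16 (R 4.3.3) with TMM scaling (0.883 to 1.14), the quasi-likelihood F-test and Benjamini-Hochberg adjustment over all tested genes. SE was the fold change divided by the root of F. Alternatives were DESeq2 1.42.0, limma-voom with sample quality weights (limma 3.58.1), other scalings, no filter, the compared groups alone, a replicate block and leaving out each library, and, chosen after seeing the data, leaving out both WT noCys libraries with Adipoq. The scripts were tested on simulated data. Named neighbours were the 3 genes with the highest Pearson r of log2 CPM over 21 libraries, predicted genes passed over, and of each pathway list the 3 called genes with the largest rise and the 3 with the largest fall in KO against WT without cysteine and without tryptophan were named, with the adipocyte markers. Some genes that this rule names are not reported here. The other called markers and the genes overlapping a member were named after their values were seen. RPKM was CPM per kilobase of the principal transcript.

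Depth was 8889951 to 27230852 counts per library, and the SE also holds the spread between libraries. Limits from 3 counts cover counting error only.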

Additional observations from a re-analysis of the deposited data

Results flagged for a closer look

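Each of the 10 genes was searched for a library far from the rest in the 3 groups of 4 or 5 libraries, and of these 30 sets of values 2 held one, where chance gives about 1 in 20. Cideb was 30.7 CPM in WT noCys replicate 3 against 37.5 to 38.3 in the other 3 libraries, a gap of 0.903 of the group's range. Mogat1 was 0 in KO CTR replicate 4 against 0.999 to 1.18 in the other 3, a gap of 0.846 of the range.

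The effect of cysteine removal on Plin2 differed between KO and WT by 1.46 on the log2 scale (edgeR's quasi-likelihood F-test, adjusted p = 0.0464), with WT noCys below WT CTR in all libraries and KO noCys overlapping KO CTR. The call was lost in 11 of 14 fits with 1 library left out (1.00, adjusted p = 0.209, without KO noCys replicate 3) and with both WT noCys libraries with Adipoq left out (1.28, adjusted p = 0.165).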

How the results depend on the processing

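Calls among the 10 genes depended on the tool (limma-voom also weighted samples by quality) in most comparisons, while Cd36, Vldlr, Plin2, Cidec and Fabp4 were all called in KO against WT without cysteine by DESeq2 and limma-voom, under both other scalings, without the filter, with the replicate block and in the groups alone. For tryptophan removal in KO, DESeq2, limma-voom and no filter gave 1 call in place of 0. For cysteine removal in WT, DESeq2 gave 1, limma-voom 2, no filter 2 and the groups alone 3 in place of 0, and for tryptophan removal in WT DESeq2 gave 1. KO noCys against KO noTrp had 2 calls in place of 1 with DESeq2, limma-voom, library totals or no filter, and the difference in cysteine removal between KO and WT had 2 with DESeq2, limma-voom or the groups alone. Cysteine removal in KO had 4 calls, 5 with DESeq2, limma-voom or no filter and 3 in the groups alone (Lpl, Plin5 and Fabp4). In the groups alone, KO against WT had 0 calls on the control diet and 0 without tryptophan. With both WT noCys libraries with Adipoq left out (chosen after seeing the data), 3 were called in KO against WT without cysteine and 0 for the difference in cysteine removal. The cause of these differences was not tested.

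Whether replicate numbers pair the samples was not settled. The r of deviations was -0.355 to 0.353, the highest in KO against WT without tryptophan, which had too few pairs for the next count. In 0 of 6 comparisons with 3 or more pairs did every library correlate best with its own number. Partial pairing would also fail this rule, and on the control diet 3 of 6 libraries of KO and WT met it. With the replicate block, 1 gene was called for cysteine removal in KO (Plin5) and 0 for the difference in cysteine removal (Plin2, adjusted p = 0.0736), and calls over all genes fell, for example from 95 to 14 for cysteine removal in WT and 46 to 10 for KO against WT on the control diet.

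With 1 library left out, calls ranged from 2 to 5 in KO against WT without cysteine, 0 to 1 on the control diet, 0 to 4 for cysteine removal in KO, 0 to 1 for tryptophan removal in KO and in WT, 0 to 2 for KO noCys against KO noTrp and 0 to 2 for the difference in cysteine removal. Over all genes, leaving out KO noCys replicate 3 gave 2358 calls for 4055 in KO against WT without cysteine, 1379 for 2906 for cysteine removal in KO, 570 for 2000 against KO noTrp, and 430 for 1069 and 416 for 912 in the differences of effects. Cysteine removal in WT had 1 (without WT CTR replicate 3) to 53 calls for 95, tryptophan removal 99 to 728 for 459 in WT (without WT noTrp replicate 1 and 2) and 105 to 447 for 269 in KO (without KO CTR replicate 1 and 2), and KO against WT 9 (without KO CTR replicate 2) to 53 for 46 on the control diet and 14 to 230 for 28 without tryptophan (without WT noTrp replicate 1 and 2). WT noTrp had 2 libraries, and where 1 was left out the other was assumed to vary like the other groups. There, Cidec on tryptophan removal in WT ranged from -0.72 (without replicate 2) to 1.48, and the genotype effect without cysteine against that without tryptophan from -0.47 to 1.74 for Cidec (without replicate 2 and 1) and -0.14 to 1.09 for Cd36 (without replicate 1 and 2). Of 49 fold changes under 0.5 and not called, 29 had another sign under some setting and 0 were called.

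All-gene counts that differed by over 1.5 times were, for KO against WT, 46 against 127 (DESeq2), 86 (limma-voom), 154 (no filter) and 6 (groups alone) on the control diet and 28 against 117, 6, 101 and 4 without tryptophan. For tryptophan removal in KO they were 269 against 607, 610 and 136 (DESeq2, limma-voom, groups alone), and in WT 459 against 805, 32 and 3, with 191 under the replicate block. For cysteine removal in WT they were 95 against 316, 533, 269 (no filter) and 396 (groups alone). KO noCys against KO noTrp had 2000 against 3204 (limma-voom) and 1302 (block), and limma-voom gave 2179 for 1069 and 553 for 912 in the differences of effects. Without both Adipoq libraries KO against WT without cysteine had 2325 for 4055, cysteine removal in WT 0 for 95, and the differences of effects 521 for 1069 and 471 for 912.

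Library totals in place of TMM raised the share of higher genes among those called to 73.7% from 52.6% for cysteine removal in KO, with the median of all genes at 0.13. The share went from 21.7% to 36.6% for KO against WT on the control diet, 41.6% to 55.5% and 53.2% to 78.0% for tryptophan removal in KO and WT, 51.5% to 68.3% for KO noCys against KO noTrp, and 47.9% to 72.6% and 52.3% to 81.4% for the differences of effects in cysteine removal and between diets (medians 0.16 and 0.19). Depth limits Mogat1 most.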
